A study of Mus musculus with 12 samples.

Results

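Whole-liver RNA from an IkkβDhep mouse (Dhep, Cre-positive) was compared with whole-liver RNA from an IkkβF/F mouse (FF, Cre-negative) across all expressed genes. The arrays were chosen by their titles, which name fresh liver and the Cre status, and they were 6 of the 12 Illumina mouse bead arrays of the series, 3 for Dhep liver and 3 for FF liver. The other 6 arrays held hepatocytes freshly isolated from mice of the same genotypes and were used to show where the liver difference differed from theirs. All mice were male C57BL6/J carrying the Ikkβ F allele or its deleted form, and Dhep marks the animals in which Ikkβ was deleted. No source used here names the promoter that drives Cre. The sample labels put the animals at 4 to 6 weeks, and the study's description puts them somewhat later. Since that description counts 4 mice and 4 RNA samples, the arrays of each group were read as repeats on the RNA of a single animal. The p-values below therefore measure only the spread between arrays, which may be technical, and genotype and individual cannot be told apart.

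IKKβ, encoded by Ikbkb, is the kinase subunit that marks the inhibitor IκB for destruction and so frees the transcription factor NF-κB to enter the nucleus. In hepatocytes this pathway is known for its part in acute phase protein synthesis and in survival after exposure to tumour necrosis factor. Liver also holds Kupffer cells, sinusoidal endothelial cells, stellate cells, bile duct cells and blood, and their RNA is part of a whole-liver sample.

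Both sets of arrays were close to each other in quality. Raw median intensity ran from 46.2 to 53.8 on the Dhep liver arrays and from 45.7 to 52.8 on the FF liver arrays. Across probes, the normalized signals of arrays of 1 group correlated at a Pearson's r of 0.998, and those of Dhep against FF liver arrays at 0.991 to 0.992. A typical probe had an SD over its 3 arrays of 0.064 in Dhep liver and 0.061 in FF liver on the log2 scale (medians). Hepatocyte genes marked both samples as liver. Ttr, which encodes the plasma carrier transthyretin, had log2 signals of 14.99, 15.04 and 14.87 in Dhep liver and 15.13, 14.96 and 14.91 in FF liver, and is named after its values were seen. The Alb probe was dim in both livers, with means of 7.67 and 7.82. The summed linear signal of 27 hepatocyte identity genes was 511861 to 519877 on the Dhep liver arrays and 512347 to 525784 on the FF liver arrays. These sums overlapped, none of the 27 genes was called, and their median log2 difference was -0.02.

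The gene named in the genotype did not give a check of the deletion. Ikbkb had log2 signals of 7.38, 7.58 and 7.46 in Dhep liver, against 7.65, 7.54 and 7.66 in FF liver on its kept probe. The arrays of the groups overlapped, and the log2 difference was -0.15 ± 0.06 (moderated SE, n = 3 arrays per group, adjusted p = 0.0726 by limma). The position of the probe within or outside the deleted part of the gene was not analysed here. Of 19 measured genes of the IKK complex and NF-κB subunits, 0 were called, and their median log2 difference was -0.03. Ikbkg, the regulatory subunit, stood at -0.26 on its brightest probe (adjusted p = 0.000481) and at 0.03 and 0.09 on its others. Relb (0.19), the DNA-binding subunits Rela (0.09) and Nfkb2 (-0.06) and the inhibitor Nfkbia (-0.04) stood near 0, and Nfkbiz, a nuclear IκB protein, stood at 0.46. Chuk and Nfkb1 matched no probe, and Rel did not pass the filter on low signals.

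Across the arrays, large differences were mostly in 1 direction. A probe was called when its Benjamini-Hochberg adjusted p in limma was under 0.05 and its log2 difference, Dhep liver minus FF liver, was at least 1 in size. Of 22859 kept probes, 115 were called higher in Dhep liver (0.503%) and 21 lower (0.0919%), which is 0.595% in all. The higher probes stood for 68 named genes and the lower ones for 13, while 24 higher and 5 lower probes had no gene symbol. On all 136 called probes the Dhep and FF arrays did not overlap, as was the case for 40.4% of all kept probes. With the adjusted p alone, 2990 probes were higher (13.1%) and 3361 lower (14.7%). Quantile normalization gives all arrays the same distribution, and its part in this near balance was not tested. The median difference over all kept probes was -0.016, and 97.2% of probes lay within 0.5 of 0. At 0.5 or more in size, 492 differences were positive and 139 negative, and at 2 or more, 13 were positive and 4 negative. With median scaling in place of quantile normalization the called probes were 82 higher and 30 lower.

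**Figure D1:**
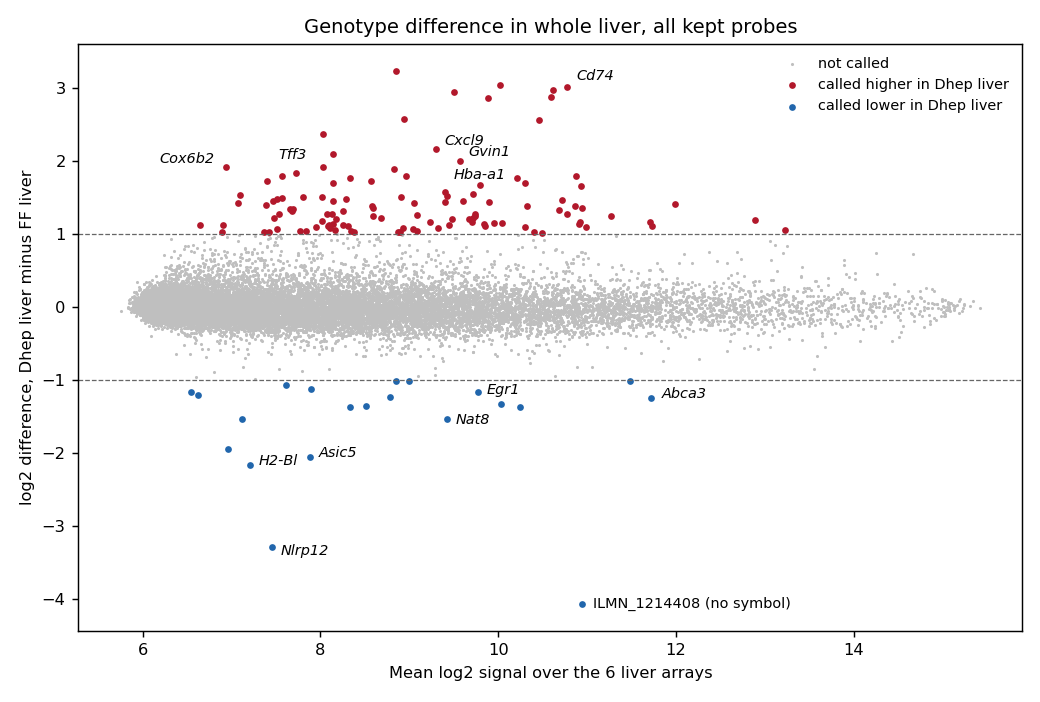
Log2 difference (Dhep liver minus FF liver) of every kept probe against its mean log2 signal over the 6 liver arrays. Red points are the 115 probes called higher and blue points the 21 called lower in Dhep liver. Dashed lines mark a log2 difference of 1 and -1, and the called differences run from -4.07 to 3.23.

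The largest rises among named genes were in MHC class II antigen presentation, the pathway by which peptides from engulfed protein are shown to helper T cells. Of 15 measured genes of class II molecules, their loading and their regulation, 8 rose, 0 fell and 7 did not pass, with a median log2 difference of 1.10 against -0.03 over all 12010 measured genes. Cd74, whose product is the invariant chain, had log2 signals of 12.33, 12.31 and 12.20 in Dhep liver, against 9.25, 9.31 and 9.25 in FF liver. All Dhep arrays were far above all FF arrays, a difference of 3.01 ± 0.05 or 8.04-fold (moderated SE, n = 3 arrays per group, adjusted p = 5.47e-22 by limma). The beta chain H2-Eb1 had 11.07, 10.96 and 10.88 in Dhep liver, against 7.99, 8.11 and 7.99 in FF liver (2.94 ± 0.06, adjusted p = 1.01e-20). H2-Ab1, the other beta chain, had 12.00, 12.00 and 12.11 in Dhep liver and 9.18, 9.22 and 9.08 in FF liver (2.88 ± 0.06, adjusted p = 1.44e-21). All 3 of its probes were called, at 2.58 to 3.03. The alpha chain H2-Aa had 11.74, 11.70 and 11.77 in Dhep liver and 9.13, 9.16 and 9.26 in FF liver (2.55 ± 0.06, adjusted p = 1.32e-20). In each of these chains the FF signal was well above the floor of 6.06, so class II RNA was measured in both samples and was higher in Dhep liver.

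The genes that load and trim class II peptides rose by less. H2-DMa, a subunit of the peptide exchanger, stood at 9.21, 9.24 and 9.11 in Dhep liver, against 7.03, 7.16 and 7.10 in FF liver (2.09 ± 0.07, limma adjusted p = 6.49e-17, n = 3 arrays per group). Its partner subunits H2-DMb1 (1.498) and H2-DMb2 (1.45, and 0.08 on its other probe) rose as well. The protease that trims the invariant chain, Ctss, rose by 1.10, and by less than 1 with median scaling (0.99) or without FF liver array 1 (0.998). Ifi30, a lysosomal thiol reductase, was called on 1 of 2 probes (1.06, and 0.57 on the brighter), and on neither without background correction (0.91). Ciita, the master regulator of class II transcription, stood at 0.55 and was not called. Its log2 signals were 6.49, 6.47 and 6.64 in Dhep liver, against 5.92, 6.02 and 6.00 in FF liver, where all were under the floor. The regulators Rfxap (0.08) and Rfxank (-0.14) and the exchanger's modulators H2-Oa (0.16) and H2-Ob (0.17) stood nearer to 0, and Rfxap and Rfxank are named here after their values were seen.

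Class II promoters are known for an ordered block of boxes, of which the Y box is read here as ATTGG on either strand. To show that block, a stretch of 100 bases around the box, upstream of the start, is given for 4 genes that rose, from RefSeq on GRCm38.p6, with the Y box in capitals. They lie at chr17:34287837-34287936 (minus strand), chr17:34305743-34305842 (plus strand), chr17:34153065-34153164 (plus strand) and chr17:34145094-34145193 (plus strand).
H2-Aa: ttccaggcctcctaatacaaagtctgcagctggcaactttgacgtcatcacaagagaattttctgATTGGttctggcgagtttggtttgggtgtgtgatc
H2-Eb1: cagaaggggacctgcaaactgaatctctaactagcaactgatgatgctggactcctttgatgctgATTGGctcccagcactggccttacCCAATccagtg
H2-DMb1: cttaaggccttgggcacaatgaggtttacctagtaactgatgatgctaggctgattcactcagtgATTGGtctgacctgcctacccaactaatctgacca
H2-DMb2: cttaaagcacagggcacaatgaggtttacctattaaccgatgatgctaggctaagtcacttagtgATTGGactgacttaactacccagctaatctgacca
A window from 250 bases before to 50 after the start was at hand for 11 of the 15 class II genes, and 9 of these held the Y box letters. The same letters were in 42.6% of 9723 measured genes with a window, and in 27 of 52 genes called higher. Such a short match is a description and not a site.

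Interferon-γ inducible GTPases, which act on the membranes of vacuoles that hold intracellular microbes, rose together. Of 15 measured, 8 rose, 0 fell and 7 did not pass, with a median log2 difference of 1.03. Without a fold threshold 14 were higher by the adjusted p, as were 13.1% of all kept probes. Gvin1 had log2 signals of 10.62, 10.59 and 10.49 in Dhep liver, against 8.63, 8.50 and 8.58 in FF liver (2.00 ± 0.06, limma adjusted p = 4.14e-18, n = 3 arrays per group). Igtp had 11.77 on average in Dhep liver and 9.98 in FF liver (1.79 ± 0.05, adjusted p = 1.67e-17). The guanylate-binding proteins Gbp2b (1.31), Gbp2 (1.10, and 0.20 on its other probe) and Gbp3 (1.03) rose, as did Irgm2 (1.16), Tgtp1 (1.12) and Ifi47 (1.10). Iigp1 (0.93), Gbp10 (0.67), Gbp7 (0.51) and Gbp5 (0.30) did not reach the fold threshold. These differences sat near that threshold, and the number called was 4 with median scaling, which put Gbp2, Gbp3, Irgm2 and Ifi47 at 0.90 to 0.995, and 5 without background correction, which put Gbp2, Gbp3 and Tgtp1 at 0.86 to 0.99. Members of this family are close in sequence, so a probe may also read a relative.

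GTPase promoters are shown for a second motif, the interferon-stimulated response element, searched on both strands as GAAA and GAAA held apart by NN. Capitals mark every match in a stretch of 100 bases upstream of the start of 6 genes that rose, again from RefSeq on GRCm38.p6, chosen to hold the match and lying at different distances from the start. The stretches are chr11:58199456-58199555 (plus strand), chr11:58214868-58214967 (plus strand), chr3:142594665-142594764 (plus strand), chr3:142620559-142620658 (plus strand), chr3:142559944-142560043 (plus strand) and chr11:48992269-48992368 (minus strand).
Igtp: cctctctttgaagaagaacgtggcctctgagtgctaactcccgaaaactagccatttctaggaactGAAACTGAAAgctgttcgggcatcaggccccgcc
Irgm2: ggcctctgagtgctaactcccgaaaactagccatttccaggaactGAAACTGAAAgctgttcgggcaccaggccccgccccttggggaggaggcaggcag
Gbp2b: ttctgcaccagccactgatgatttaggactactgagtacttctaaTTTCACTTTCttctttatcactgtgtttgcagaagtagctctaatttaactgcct
Gbp2: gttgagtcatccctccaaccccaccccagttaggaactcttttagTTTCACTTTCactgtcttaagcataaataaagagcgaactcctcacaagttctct
Gbp3: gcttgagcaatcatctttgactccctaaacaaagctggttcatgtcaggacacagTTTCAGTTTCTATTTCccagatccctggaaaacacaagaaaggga
Tgtp1: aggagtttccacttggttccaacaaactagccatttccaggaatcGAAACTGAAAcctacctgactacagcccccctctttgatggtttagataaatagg
The match was in 9 of 10 GTPase genes with a window, in 10 of 52 genes called higher (19.2%) and in 3.92% of all measured genes with a window. Without the GTPase list it was in 4 of 45 genes called higher (8.89%). The κB motif was in 13.5% of genes called higher and 6.06% of all, and the GAS motif, TTCNNNGAA, in 17.3% and 8.51%. Matches of different motifs were counted separately, also where they overlapped. Of the 13 genes called lower 9 had a window, and each of these 3 motifs was in 1 of them, a different gene each time (Asic5, Krt23 and Nlrp12).

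Genes of the type I interferon response gave no call. Of 28 measured, 0 were called in either direction by limma, and the median log2 difference was 0.08. By the adjusted p alone, 9 were higher and 5 lower, against 13.1% and 14.7% of all kept probes. Lgals3bp (0.53) and Ifitm3 (0.47) stood highest, while the antiviral genes Rsad2 (-0.58) and Oasl1 (-0.56) stood lowest. Of 12 measured IRF and STAT factors 0 were called, with Irf8 at 0.62 and Irf1 at 0.59. The ubiquitin-like protein Ubd, also induced by interferon-γ, rose by 1.54, and Serpina3f by 1.501. The receptor chains Ifngr1 (0.34) and Ifngr2 (0.36) were not called.

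The immunoproteasome, which cuts peptides for MHC class I, rose in its catalytic subunits Psmb8 and Psmb9. Psmb8 had log2 signals of 11.13, 11.10 and 11.06 in Dhep liver and 9.40, 9.35 and 9.26 in FF liver (1.76 ± 0.05, limma adjusted p = 1.90e-17, n = 3 arrays per group). Psmb9 had 11.15, 11.11 and 11.18 in Dhep liver and 9.41, 9.46 and 9.51 in FF liver (1.69 ± 0.05, adjusted p = 3.15e-17). The third catalytic subunit, Psmb10, stood at 0.92 and the activator subunit Psme1 at 0.50, so 2 of 6 rose. Of 23 constitutive subunits 0 were called, and they ran from -0.40 to 0.12 with a median of -0.01 (-0.22 with median scaling). Among 23 class I and peptide loading genes 1 rose and 1 fell on the brightest probe, with a median of 0.34. H2-D1, a classical class I heavy chain, rose on all 3 of its probes (1.03 to 1.19, of which the brightest, at 1.05, moved to 0.81 with median scaling). Tap1, a chain of the peptide transporter, stood at 0.89 and Tap2 at 0.71. H2-Q6 (1.51 and 1.00 on its probes), H2-Q8 (1.79 and 0.66), the class I-like gene Gm8909 (1.44) and the loading chaperone Tapbp (1.04 and 0.34) were each called on 1 probe. The Tapbp call was lost with median scaling (0.96), without background correction (0.91) and without FF liver array 1 (0.99). Class I genes are near-identical copies, and which of them a probe read is uncertain.

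**Figure D2:**
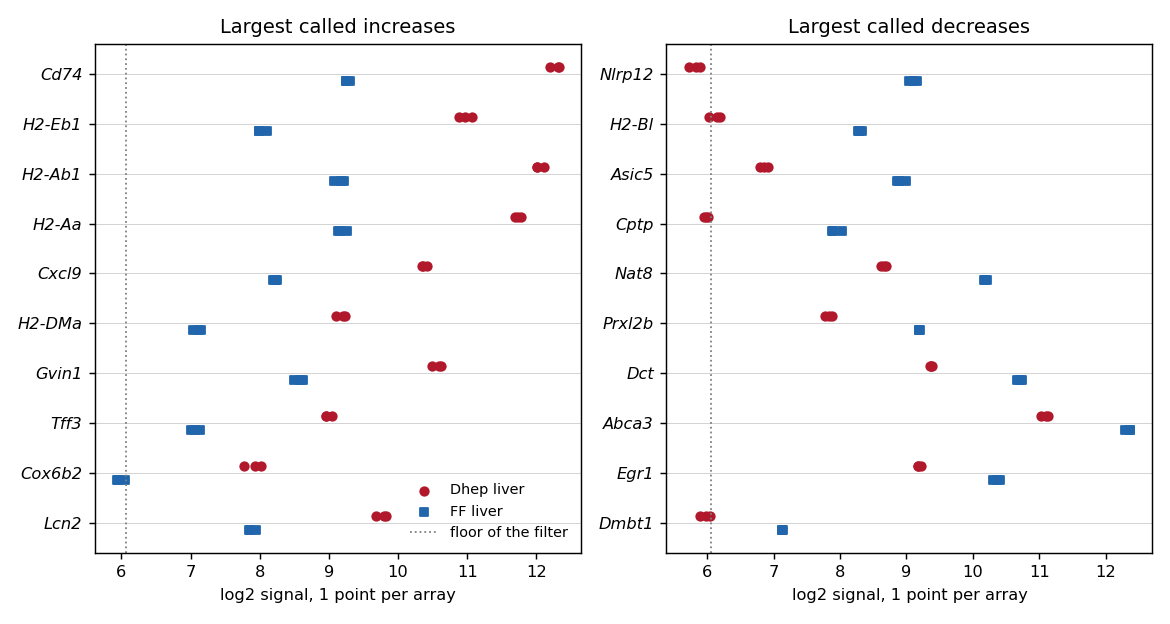
Log2 signal on each liver array for the 10 named genes with the largest called difference in each direction, 1 gene per line. Red circles are the 3 Dhep liver arrays and blue squares the 3 FF liver arrays, and the dotted line is the floor at 6.06. No gene shown has overlapping groups. Nlrp12, Cptp and Dmbt1 lie under the floor in Dhep liver on average, and Cox6b2 in FF liver.

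Macrophage genes were higher in Dhep liver across much of their list. Of 28 measured markers of Kupffer cells and macrophages, 13 rose, 0 fell and 15 did not pass, with a median log2 difference of 0.93. Without the fold threshold 24 were higher, as were 13.1% of all kept probes. Marco, a scavenger receptor for bacteria, had log2 signals of 8.53, 8.42 and 8.44 in Dhep liver, against 6.63, 6.54 and 6.84 in FF liver (1.79 ± 0.08, limma adjusted p = 1.67e-14, n = 3 arrays per group). The complement subunit C1qc had 10.54, 10.44 and 10.48 in Dhep liver and 8.92, 8.99 and 8.92 in FF liver (1.54 ± 0.06, adjusted p = 2.92e-16). Adgre1, which encodes the F4/80 antigen, rose by 1.27 (0.83 on its mildest probe), and the growth factor receptor Csf1r by 1.16 (0.66 on its other probe). Aif1 (1.45), C1qb (1.43), the perforin-like Mpeg1 (1.35, and 0.24 on its other probe), Fcer1g (1.25), the lysozymes Lyz1 (1.15) and Lyz2 (1.10, and 0.07 on its mildest of 3 probes), Laptm5 (1.13) and Vsig4 (1.00) rose too. The remaining call was Ctss (1.10), which the class II list also holds. With median scaling 8 were called rather than 13, and Lyz1 (0.93), Lyz2 (0.92), Laptm5 (0.92) and Vsig4 (0.80) were among those not called.

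The markers did not all move alike. The adaptor Tyrobp (0.94), C1qa (0.91), the receptor kinase Axl (0.78) and the metal transporter Slc11a1 (0.70) stood under the threshold. Clec4f, a lectin of Kupffer cells, stood at 0.54, Timd4, a marker of resident Kupffer cells, at 0.03, and the haemoglobin scavenger Cd163 at -0.50, of which Clec4f and Timd4 are named after their values were seen. The summed linear signal of the 28 markers was 28649 to 28910 on the Dhep liver arrays and 14140 to 14757 on the FF liver arrays, and Cd5l, Itgam and Cybb did not pass the filter. In bulk tissue, more cells of a type and more RNA per cell cannot be told apart. Macrophages also express MHC class II and interferon-inducible genes, and the part of these cells in those differences was not tested. Further genes of myeloid cells that rose were the receptors Fcgr4 (1.03) and Fpr2 (1.27), Lgals3 (1.06), Cfp, which encodes the complement regulator properdin (1.10), and Ear3 (1.28, and 0.40 on its mildest of 3 probes). Of these, Fcgr4 (0.88), Lgals3 (0.91) and Cfp (0.87) were not called with median scaling, nor Fcgr4 without background correction (0.98). The cell surface antigens Cd52 (1.42) and Ly6e (1.41), not taken here as markers of 1 cell type, rose too.

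**Figure D3:**
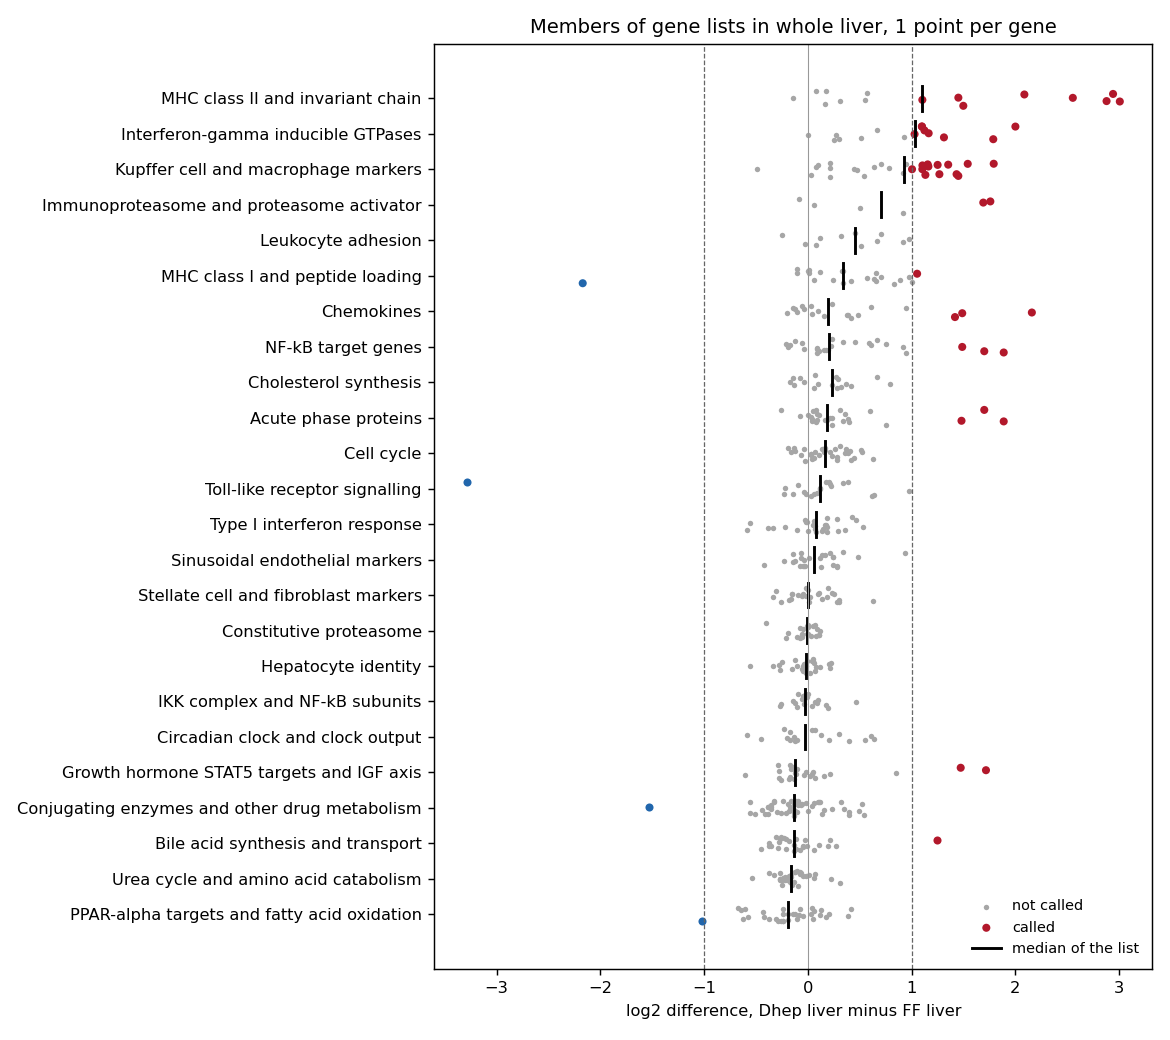
Log2 difference (Dhep liver minus FF liver) of each measured member of 24 gene lists, 1 point per gene on its brightest kept probe. Grey points were not called, red points were called higher, blue points were called lower, and black bars are list medians. The 3 lists at the top have medians of 1.10, 1.03 and 0.93, and the metabolic lists at the bottom lie at -0.12 to -0.19.

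Chemokines and inflammatory proteins rose in a few members each. Of 20 measured chemokines 3 rose and 0 fell, with a median log2 difference of 0.19. Cxcl9, which draws T cells and is induced by interferon-γ, had log2 signals of 10.37, 10.35 and 10.42 in Dhep liver and 8.25, 8.22 and 8.19 in FF liver (2.16 ± 0.05, limma adjusted p = 9.85e-20, n = 3 arrays per group). Ccl5, which draws T cells and monocytes, rose by 1.49, and the B cell chemokine Cxcl13 by 1.42. Cxcl10 stood at 0.95, with 7.31, 7.51 and 7.44 in Dhep liver against 6.57, 6.46 and 6.38 in FF liver, and was called in some alternatives, such as cyclic loess (1.02). Of 11 adhesion genes 0 were called, with a median of 0.46. Without the fold threshold 7 of them were higher, as were 13.1% of all kept probes. Cd44 (0.98), Vcam1 (0.92), Selplg (0.70) and Icam1 (0.66) stood highest. Of 21 genes of Toll-like receptor signalling, Tlr2 stood at 0.97 and the only call was the fall of Nlrp12 described further on.

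NF-κB target genes gave 3 rises. Of 26 measured, 3 rose (Lcn2, Saa3 and Ccl5), 0 fell and 23 did not pass, with a median of 0.21. Lcn2, a protein that binds bacterial iron carriers, had log2 signals of 9.80, 9.68 and 9.83 in Dhep liver, against 7.86, 7.84 and 7.95 in FF liver (1.89 ± 0.06, limma adjusted p = 5.88e-17, n = 3 arrays per group). Saa3, a serum amyloid A protein, had 9.08, 8.89 and 9.00 in Dhep liver and 7.36, 7.17 and 7.34 in FF liver (1.70 ± 0.06, adjusted p = 5.13e-16). Both were clear of overlap. Of 27 acute phase proteins 3 rose, Lcn2, Saa3 and the feedback inhibitor Socs3, and the median was 0.18. The main liver serum amyloid, Saa1, stood at 0.75 and Orm2 at 0.60. Lcn2 and Saa3 are also expressed by leukocytes. Of 9 neutrophil markers Lcn2, Fpr2 and S100a8 (1.13, and 0.90 without background correction, not called) rose, S100a9 stood at 0.71, and the median was 0.18. Their summed signal was 1889 to 2001 on the Dhep liver arrays and 900 to 930 on the FF liver arrays. Lcn2 is itself part of this sum, so the sum is no separate measure beside Lcn2. The neutrophil proteases Mpo (-0.04) and Elane (0.00) stood near 0 and are named after their values were seen. The part of neutrophils in the Lcn2 rise was not tested.

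Other cell types gave smaller shifts. Of 17 T and NK cell markers 1 rose, Ccl5, and the T cell receptor subunits Cd3g (0.56) and Cd3e (0.39) were not called. Their summed signal was 2594 to 2690 on the Dhep liver arrays and 2345 to 2371 on the FF liver arrays. Of 26 markers each of sinusoidal endothelium and of stellate cells, 0 were called, with medians of 0.06 and 0.00, and the lymphatic and sinusoidal receptor Lyve1 stood highest at 0.94. The endothelial median turned to -0.05 with median scaling. Of 7 bile duct markers 1 rose. Tff3, a trefoil peptide of mucus-secreting epithelium, had log2 signals of 8.95, 8.96 and 9.05 in Dhep liver and 7.13, 7.06 and 7.00 in FF liver (1.92 ± 0.08, limma adjusted p = 1.20e-14, n = 3 arrays per group). The keratin Krt7 of the same cells stood at -0.20 and Sox9 at 0.27. Of 4 measured B and plasma cell markers and 9 dendritic cell markers 0 were called. Of 33 cell cycle genes 0 were called, although 15 were higher and 2 lower without the fold threshold, with Cdc20 highest at 0.62.

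Feedback inhibitors of cytokine and growth hormone receptors rose. Socs2 had log2 signals of 9.47, 9.43 and 9.37 in Dhep liver, against 7.60, 7.77 and 7.75 in FF liver (1.72 ± 0.06, limma adjusted p = 7.67e-17, n = 3 arrays per group). Socs3 had 9.03, 8.99 and 9.07 in Dhep liver and 7.51, 7.49 and 7.65 in FF liver (1.48 ± 0.06, adjusted p = 1.02e-15). Cish had 8.32, 8.26 and 8.16 in Dhep liver and 6.80, 6.77 and 6.76 in FF liver (1.47 ± 0.06, adjusted p = 6.70e-16). All 3 were high on every Dhep array. Socs2 and Cish are known targets of STAT5, and Socs3 of STAT3. Of 26 measured growth hormone and STAT5 targets only Socs2 and Cish rose and 0 fell, the median was -0.12, and Igfbp1 (0.85) and Cyp2a4 (-0.60) were the furthest from 0 without a call. Gadd45g, a stress-induced gene, rose to 10.22, 10.19 and 10.17 in Dhep liver, against 8.57, 8.66 and 8.62 in FF liver (1.58 ± 0.05, adjusted p = 5.81e-17, and 1.03 on its other probe). Of 21 immediate early and GADD45 genes the only other call was Egr1, a transcription factor, which fell by 1.17. The STAT motif GAS is shown for Socs3, from RefSeq on GRCm38.p6, with the match in capitals at chr11:117969467-117969566 (minus strand).
Socs3: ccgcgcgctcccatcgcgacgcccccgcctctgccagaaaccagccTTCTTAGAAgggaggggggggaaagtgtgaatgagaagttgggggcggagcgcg

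Haemoglobin genes rose on nearly every probe. Hba-a1, the alpha chain, had log2 signals of 10.61, 10.63 and 10.68 in Dhep liver, against 8.97, 8.98 and 8.94 in FF liver (1.67 ± 0.06, limma adjusted p = 2.13e-16, n = 3 arrays per group). All 6 probes of the beta chain gene Hbb-bs were called (1.03 to 1.24), and 3 of 4 probes of Hbb-bt (0.57 to 1.21). These copies are nearly identical and share signal, and the brightest Hbb-bs probe (1.14) stood at 0.95 with median scaling. The other red cell and platelet markers were not called. Alas2, the heme synthesis enzyme of red cell precursors, stood at -0.34, and Bpgm (0.02) and the platelet gene Gp9 (0.06) stood near 0. The amount of blood in each piece of liver was not measured here, and its part in these rises was not tested.

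Several single genes rose outside these lists. The translation factor Eif4e3 had 9.29, 9.19 and 9.16 in Dhep liver and 7.45, 7.47 and 7.45 in FF liver (1.76 ± 0.05, limma adjusted p = 1.24e-17, n = 3 arrays per group). Cox6b2, a testis form of a respiratory chain subunit, had log2 signals of 7.77, 8.02 and 7.92 in Dhep liver and 6.06, 5.95 and 5.94 in FF liver, where the mean was under the floor, and was at least 3.59-fold higher in Dhep liver (adjusted p = 3.17e-16). Both were separate on all arrays. The histone genes H2ac24 (1.14) and H2ac7 (1.10), the actin-binding Tmsb10 (1.03), the ribosomal protein gene Rpl29 (1.20, and 0.27 on its brighter probe) and the G protein regulator Rgs16 (1.05) rose by less. H2ac24, H2ac7, Tmsb10 and Rgs16 were no longer called with median scaling (0.95, 0.998, 0.87 and 0.94).

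Bile acid and sterol genes gave 2 rises. Cyp7a1, which sets the pace of bile acid synthesis, had log2 signals of 11.91, 11.87 and 11.89 in Dhep liver, against 10.65 on each FF liver array (1.24 ± 0.05, limma adjusted p = 9.89e-15, n = 3 arrays per group). It was the only call among 28 genes of bile acid synthesis and transport. By the adjusted p alone, 4 of these were higher and 13 lower, against 13.1% and 14.7% of all kept probes. Their median was -0.13, and Akr1d1 (-0.46) and the sterol transporter Abcg8 (-0.38) stood lowest. Sqle, which makes squalene epoxide on the way to cholesterol, was called on 1 of 2 probes (1.08, and 0.79 on the brighter), a call that median scaling ended (0.93). The other 16 measured cholesterol synthesis genes were not called, with the list's median at 0.23, and 0.05 with median scaling. Nsdhl stood at 0.67 and Mvd at 0.42.

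Several metabolic gene lists leaned lower by small amounts, while others, such as cholesterol synthesis above, did not. Of 34 PPARα targets and genes of fatty acid oxidation 1 fell and 0 rose, with a median of -0.19. Without the fold threshold 18 were lower and 4 higher, against 14.7% and 13.1% of all kept probes. The fatty acid hydroxylase Cyp4a14 had 8.54, 8.47 and 8.44 in Dhep liver and 9.55, 9.57 and 9.41 in FF liver (-1.02 ± 0.06, limma adjusted p = 2.11e-12, n = 3 arrays per group). That call was lost without FF liver array 2 (-0.99), without Dhep liver array 3 and without background correction (-0.97). Cyp4a31 (-0.67), Acot1 (-0.65) and Ehhadh (-0.62) stood next. Of 34 genes of the urea cycle and amino acid catabolism 0 were called, with a median of -0.16 and Hal, the histidine lyase, lowest at -0.54. Without the fold threshold 17 of them were lower, as were 14.7% of all kept probes. Of 50 genes of the mitochondrial respiratory chain 0 were called, and the median was -0.10. Among 52 conjugating and drug-metabolizing enzymes the median was -0.13, and with median scaling these 4 medians lay between -0.36 and -0.30.

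Nat8 was the 1 conjugating enzyme gene that fell. This N-acetyltransferase gene had log2 signals of 8.62, 8.70 and 8.66 in Dhep liver, against 10.19, 10.17 and 10.22 in FF liver (-1.53 ± 0.05, limma adjusted p = 7.75e-17, n = 3 arrays per group). Clock genes went both ways without a call. Of 18 measured, Ciart (0.64), Dbp (0.60) and Usp2 (0.55) stood highest and the activator Arntl (-0.58) lowest. The hour at which each liver was taken was not analysed here. The list for tumour necrosis factor receptors, cell death and survival had 23 measured genes and 0 calls. Its median was 0.08 and its members ran from -0.21 to 0.87. By limma's adjusted p alone, 6 were higher and 3 lower. Coagulation and complement gave 3 calls among 35 genes, all higher, and a median of 0.10. Iron and heme handling gave 0 calls among 31 genes and a median of -0.05. The 15 lists not described singly held 2 called members between them and had medians of -0.19 to 0.20.

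The genes that fell furthest had no list in common. Nlrp12, which encodes a NOD-like receptor of myeloid cells, had log2 signals of 5.90, 5.83 and 5.72 in Dhep liver, all under the floor, against 9.10, 9.16 and 9.04 in FF liver. The fall was at least 8.21-fold (limma adjusted p = 1.74e-21, n = 3 arrays per group). H2-Bl, a class I gene, had 6.03, 6.19 and 6.14 in Dhep liver and 8.32, 8.27 and 8.29 in FF liver (-2.17 ± 0.06, adjusted p = 4.18e-19). Both were near or under the floor in Dhep liver and clearly above it in FF liver. Asic5, an ion channel of bile duct epithelium, had 6.79, 6.92 and 6.85 in Dhep liver and 8.86, 8.89 and 8.99 in FF liver (-2.06 ± 0.06, adjusted p = 1.25e-17). Cptp, a lipid transfer protein gene, was at least 3.66-fold lower on 1 probe (5.99, 5.96 and 6.01 in Dhep liver, against 8.02, 7.90 and 7.88 in FF liver, adjusted p = 2.56e-17) and stood at 0.04 on the other.

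Further falls were smaller. Prxl2b, a prostaglandin F synthase gene, had 7.83, 7.78 and 7.88 in Dhep liver and 9.19, 9.19 and 9.21 in FF liver (-1.36 ± 0.06, limma adjusted p = 2.92e-15, n = 3 arrays per group). Dct, an enzyme of melanin synthesis, had 9.39, 9.35 and 9.36 in Dhep liver and 10.71, 10.75 and 10.66 in FF liver (-1.34 ± 0.05, adjusted p = 2.92e-15). The lipid transporter Abca3 had 11.10, 11.03 and 11.13 in Dhep liver and 12.37, 12.37 and 12.30 in FF liver (-1.26 ± 0.05, adjusted p = 1.14e-14), and its 3 probes ran from -1.37 to -0.99. None of these groups overlapped. Egr1 had 9.17, 9.21 and 9.17 in Dhep liver and 10.31, 10.41 and 10.37 in FF liver (-1.17 ± 0.06, adjusted p = 5.06e-14). Dmbt1, a mucosal scavenger receptor gene, was at least 2.10-fold lower, its Dhep mean lying under the floor (adjusted p = 3.83e-13). The keratin gene Krt23 fell by 1.07. Without background correction neither Dmbt1 (-0.88) nor Krt23 (-0.92) was called. Hsd3b2, a steroid dehydrogenase gene, was called on 2 of 6 probes (-1.13 and -1.01) and stood at 0.30 on its brightest. The probe at -1.01 was not called without background correction (-0.95), with cyclic loess (-0.995) or without FF liver array 1 (-0.96), Dhep liver array 2 (-0.998) or Dhep liver array 3 (-0.97). Probes of its family may read more than 1 gene.

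The largest difference of all belonged to a probe without a gene symbol. ILMN_1214408 had log2 signals of 8.79, 8.95 and 8.98 in Dhep liver, against 13.02, 12.96 and 12.96 in FF liver (-4.07 ± 0.06, limma adjusted p = 3.16e-24, n = 3 arrays per group). ILMN_1250443 had 10.39, 10.56 and 10.44 in Dhep liver and 7.22, 7.20 and 7.26 in FF liver (3.23 ± 0.06, adjusted p = 1.10e-21). The next probes without a symbol were ILMN_2607675 (2.86) and ILMN_1215074 (1.72) above, and ILMN_2835423 (-1.53) and ILMN_1213448 (-1.37) below. Their genes are not named here.

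Some of the genes that rose are neighbours on the genome. Of 80 called genes placed among 12001 measured genes of GRCm38.p6 (RefSeq), 18 lay next to a gene called the same way, and all 18 had risen. Of all 81 called genes, 68 had risen, and whether 18 is more than as many genes placed at random would give was not tested. They formed 7 groups. The MHC region held H2-DMa, H2-DMb2, H2-DMb1 and Psmb9 in 1 group and H2-Ab1, H2-Aa and H2-Eb1 in another. The others were the guanylate-binding genes Gbp3, Gbp2b and Gbp2, the GTPase genes Igtp and Irgm2, the complement genes C1qb and C1qc, the lysozymes Lyz2 and Lyz1 and the beta globins Hbb-bt and Hbb-bs. Most are families of related sequence, in which 1 transcript can reach the probes of several genes.

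The same contrast in isolated hepatocytes was set beside that in liver for the probes called in liver. The difference between the genotype differences, liver minus hepatocytes, was tested in the same fit and called by the same rule, which called 2.53% of all kept probes. The same rule called 2.45% of them in the hepatocyte contrast. The liver and hepatocyte contrasts used separate arrays in a shared normalization and fit, and the test of their difference used the arrays of both. Of the 115 probes higher in Dhep liver, 32 had a difference called larger in hepatocytes, 31 a difference called larger in liver, and 52 neither. Of the 21 lower probes, 11 had a fall called larger in liver and 10 did not. These probes were picked by their liver difference, which also enters this test. Their share of calls is therefore not to be set against the 2.53%. In all, 77 probes were called higher and 5 lower in both preparations, 28 had the opposite sign in hepatocytes, and 0 were called in opposite directions by limma in the same fit.

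**Figure D4:**
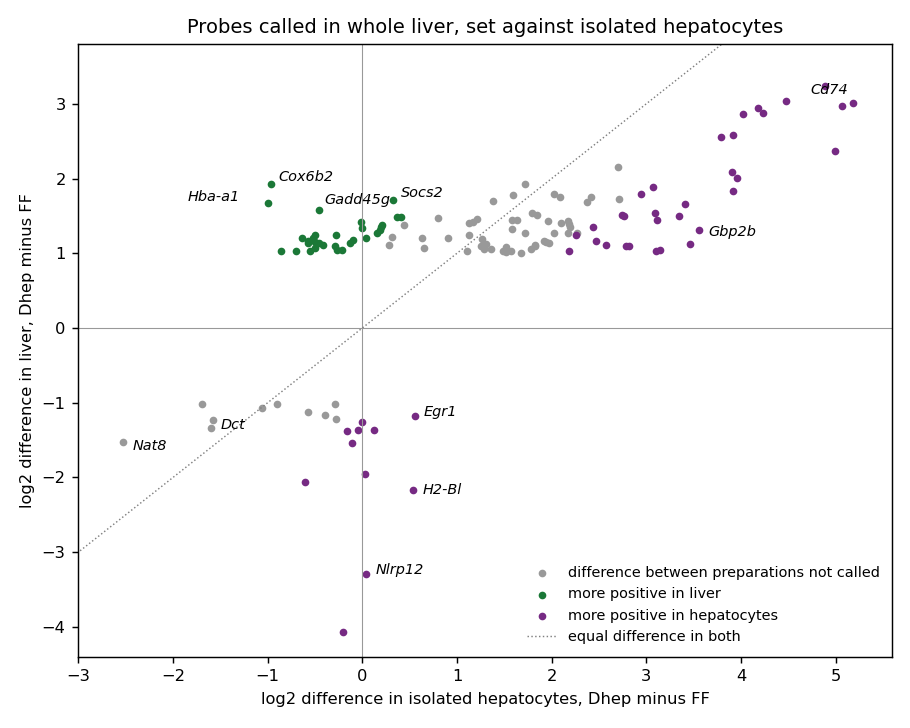
Log2 difference (Dhep minus FF) of the 136 probes called in whole liver, in liver (vertical axis) against isolated hepatocytes (horizontal axis). Colours give the call on the difference between the 2 preparations, and the dotted line marks equal differences. Class II and GTPase genes such as Cd74 and Gbp2b lie to the right of the line, while Hba-a1, Gadd45g, Socs2 and Cox6b2 lie to its left, near or below 0 in hepatocytes.

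Many class II and GTPase genes differed less in liver than in hepatocytes. Cd74 stood at 3.01 in liver and 5.18 in hepatocytes (difference -2.17, limma adjusted p = 3.6e-16, n = 3 arrays per group), and Gbp2b at 1.31 and 3.56 (-2.24, adjusted p = 1.0e-15). The median of the macrophage list was 0.93 in liver and 1.30 in hepatocytes. Mpeg1 (1.35 in liver and 2.44 in hepatocytes) and Fcgr4 (1.03 and 2.18) were called larger in hepatocytes. Laptm5 (liver minus hepatocytes -0.84), Lyz1 (-0.78), Adgre1 (-0.76) and Csf1r (-0.76) leaned the same way under the fold threshold. Marco (1.79 and 2.02) and Aif1 (1.45 and 1.64) leaned so by less and were not called different, while Fcer1g leaned toward liver (0.12). The part of non-parenchymal cells in the hepatocyte samples was not tested here.

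Socs2, Socs3, Gadd45g, the globins and Cyp7a1 differed more in liver, while for Cish (1.47 in liver and 0.80 in hepatocytes) the difference between preparations was not called. Socs2 stood at 1.72 in liver and 0.33 in hepatocytes (difference 1.39, limma adjusted p = 2.3e-12, n = 3 arrays per group), Socs3 at 1.48 and 0.37, and Gadd45g at 1.58 and -0.45. Cyp7a1 stood at 1.24 in liver and -0.28 in hepatocytes (1.52, adjusted p = 1.5e-13), and Hba-a1 at 1.67 and -0.99 (2.67, adjusted p = 6.2e-17). The fall of Cptp, a bound in liver, was at least 1.87 on the log2 scale there, against a difference of 0.03 in hepatocytes. Nlrp12 was under the floor in hepatocytes of both genotypes, so its fall in liver has no counterpart to be set against. Nat8 (-1.53 and -2.53), Dct (-1.34 and -1.60) and Krt23 (-1.07 and -1.06) were lower in both preparations, and the difference between preparations was not called for these 3. For Nat8, whose fall was larger in hepatocytes, it lay just under the fold threshold (0.994, limma adjusted p = 1.1e-10).

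**Figure D5:**
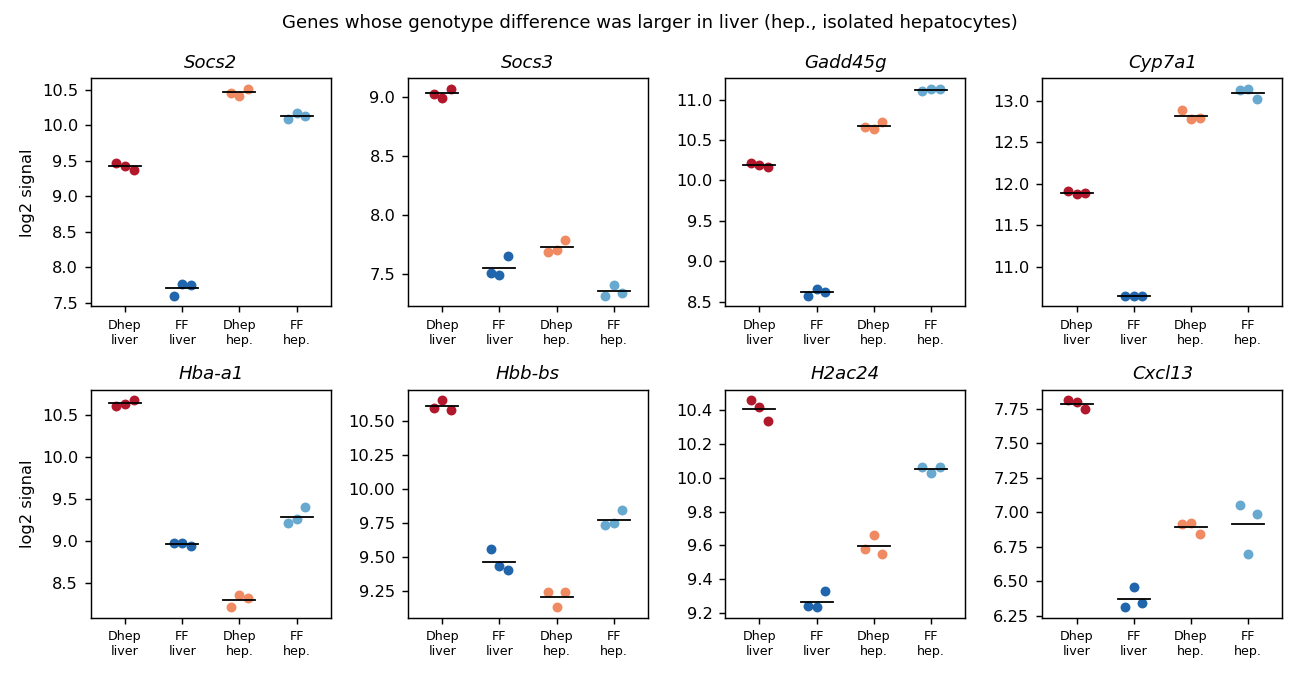
Log2 signal on each of the 12 arrays for 8 genes whose genotype difference was called larger in liver than in isolated hepatocytes (hep.). Points are arrays, black lines are group means, and each panel has its own axis. In every panel the Dhep liver arrays lie above the FF liver arrays, while in hepatocytes Socs2 (0.33) and Socs3 (0.37) are higher in Dhep on average and Cxcl13 stands at -0.02.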

How the data were processed

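The 12 bead arrays held whole liver and isolated hepatocyte RNA, with 3 arrays in each of the 4 groups that the sample titles name. Extraction used guanidine thiocyanate and a column with DNase I, and the RNA was amplified to biotin-labelled cRNA, per the labels' protocols. The authors deposited a table of intensity values for 45281 probes on a linear scale, raw per the file headers, with array medians that differ. The submitters' processing notes name BeadStudio, and its background setting is not stated in them. A second table that the authors deposited holds normalized intensity values, whose method was not analysed here, and served as an alternative.

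In limma 3.58.1 (R 4.3.3), intensities were background-corrected by normexp with an offset of 50, since negative controls were not used here, then log2-transformed and quantile normalized over the 12 arrays. The floor, 6.06 on the log2 scale, was the middle of the means of all probes. Of the probes, 22859 (50.5%) were above it on every array of at least 1 group and were kept, standing for 12010 named genes. The array's own signal limits the precision, since no detection p-value was used. Linear models with 4 group means were fitted with lmFit and eBayes (8 residual degrees of freedom, 14.8 prior). Values after ± are limma's moderated SEs, whose spread is pooled over the 4 groups. All adjusted p-values are limma's after Benjamini-Hochberg adjustment over the kept probes, and all folds are Dhep over FF on the offset scale, which understates changes of dim probes. "At least" folds set the lower group at the floor. Symbols came from GEO's platform annotation: 34885 probes had 1 symbol, 18 several and 10378 none. In a list a gene is represented by its brightest kept probe. Some genes, such as Ctss and Lcn2, are in more than 1 list, so counts of different lists are not independent.

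The genes named are every called gene and uncalled members of the 37 lists described, drawn from the 4 with the largest difference in each. To these come a fixed set of IKK and NF-κB genes with Alb and Actb, and the 3 largest called probes without a symbol in each direction. The 52 gene lists, the comparison and these rules were chosen with earlier results of these data known. On simulated data of 22859 probes for this comparison, 24 of 50 probes changed 2-fold and 50 of 50 changed 3-fold were called, with 0 false calls. The simulated noise held only the spread between repeat arrays and none between mice. It therefore gives no rate of false calls for the genotype. Same-numbered Dhep and FF liver arrays deviated together at r = 0.033, 0.043 and 0.069, and differently numbered ones at -0.052 to 0.012. The main fit did not pair arrays by number, and with the number as a block the counts of called probes were the same. Promoter windows were RefSeq's for GRCm38.p6. Other normalizations, filters, call rules and left-out arrays were tried.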

Additional observations from a re-analysis of the deposited data

Results flagged for a closer look

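For 68 named probes the genotype difference in whole liver and that in isolated hepatocytes differed from each other, by limma's test of the difference between them (adjusted p under 0.05 and a size of at least 1, n = 3 arrays per group). Values below are the log2 difference in liver minus that in hepatocytes, and no explanation of them was tested.

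Among class II genes the liver difference was smaller for Cd74 (-2.17), H2-DMb1 (-1.85), H2-DMa (-1.82), H2-DMb2 (-1.66), Ciita (-1.64), H2-Ab1 (-1.36), H2-Aa (-1.24) and H2-Eb1 (-1.24). Among interferon-inducible genes it was smaller for Tgtp1 (-2.34), Gbp2b (-2.24), Gbp3 (-2.07), Gvin1 (-1.95), Ifi47 (-1.72), Gbp2 (-1.69), Cd274 (-1.59), Ubd (-1.55), Irf1 (-1.39), Irgm2 (-1.30), Serpina3f (-1.26), Gbp5 (-1.25), Gbp10 (-1.19), Igtp (-1.16), Casp1 (-1.06) and Tap1 (-1.03). The same held for Vcam1 (-1.58), Lcn2 (-1.18), Fcgr4 (-1.15), Mpeg1 (-1.08) and Hmox1 (-1.08).

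Some genes were lower in Dhep liver and not in Dhep hepatocytes, or were less low there: Nlrp12 (-3.32), H2-Bl (-2.71), Cptp (-1.98), Egr1 (-1.73), Hal (-1.46), Asic5 (-1.46), Prxl2b (-1.32), Ehhadh (-1.25), Abca3 (-1.25) and Sult2a8 (-1.21). Of these, H2-Bl stood at -2.17 in liver and 0.54 in hepatocytes, and Ehhadh at -0.62 and 0.63. The values of Nlrp12 and Cptp are fitted ones that carry no exact size or rank, since both were under the floor in Dhep liver, and Nlrp12 in hepatocytes of both genotypes too. The same holds for Cox6b2 and Ciita, under the floor in FF liver, and for Tgtp1, Gbp5 and Ciita, under it in FF hepatocytes.

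The liver difference was the more positive for blood, matrix and vessel genes: Hba-a1 (2.67), Ramp2 (1.97), Hbb-bt (1.73), Hbb-bs (1.71), Ccn2 (1.65), Cd163 (1.56), Col4a1 (1.40), Dnase1l3 (1.31), Gdf2 (1.20) and Lyve1 (1.01). It was so too for the signalling and immune genes Prf1 (2.99), Ifngr2 (2.40), Gadd45g (2.03), Cxcl13 (1.44), Socs2 (1.39), Rgs16 (1.26), Dusp1 (1.13), Socs3 (1.11), Ccl5 (1.08) and Bst2 (1.06). The rest were Cox6b2 (2.89), Tmsb10 (1.88), H2ac24 (1.597), Ciart (1.58), Usp2 (1.53), Cyp7a1 (1.52), H2ac7 (1.39), Ndufb10 (1.35) and Rpl29 (1.16). Prf1, which encodes the pore-forming protein of killer cells, stood at 0.36 in liver and -2.63 in hepatocytes, and Ifngr2 at 0.36 and -2.03 on its brightest probe, while its other probes showed no such gap.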

How the results depend on the processing

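The 115 higher and 21 lower probes were 182 and 31 with an offset of 16, 174 and 34 with limma's treat test against a fold of 1.5, and 2990 and 3361 without the fold threshold. They were 97 and 15 without background correction, 162 and 25 in the authors' normalized table, 134 and 19 with cyclic loess, and 113 to 117 and 20 to 22 with each array left out. Median scaling gave 82 higher probes, all among the 115, and 30 lower, with the median of all probes at -0.062 rather than -0.016. It ended the call of 20 named genes, and leaving out the background correction ended 15. Of the called genes, Hsd3b2, Cyp4a14, Tmsb10, Vsig4, Ctss, Tapbp and Gbp3 lost their call without at least 1 array. With the replicate block the counts were 115 and 21, and no call of a named gene changed; the deviations of each Dhep liver array from its group mean correlated best with those of the FF liver array of its own number, as a hint from the data only.

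With median scaling, list medians moved to 0.91 for the GTPases, 0.80 for macrophage markers, 0.50 for the immunoproteasome, 0.18 for class I, 0.082 for acute phase proteins, 0.047 for cholesterol synthesis, -0.054 for sinusoidal endothelium, -0.072 for IRF and STAT factors, -0.10 for complement and coagulation, -0.12 for hepatocyte identity, -0.19 for the clock, -0.21 for growth hormone targets, -0.22 for the constitutive proteasome, -0.23 for iron and heme, -0.30 for the respiratory chain, -0.32 for conjugating enzymes and for bile acid genes, -0.35 for the urea cycle and -0.36 for PPARα targets. With an offset of 16 medians were 1.24 for class II, 1.15 for the GTPases, 1.03 for macrophage markers, 0.70 for adhesion, 0.36 for NF-κB targets, 0.34 for chemokines, 0.32 for neutrophil and 0.31 for T and NK cell markers. The authors' table gave 1.23 for class II, 1.17 for the GTPases and 1.04 for macrophage markers, and no background correction gave 0.86 for the GTPases and 0.82 for macrophage markers. Class II was 1.496 with the liver arrays normalized alone. Over probes above the floor on all arrays, fewer members remained and medians were 1.79 for class II, 1.20 for neutrophil, 0.39 for chemokine, 0.36 for T and NK cell and 0.10 for bile duct genes. Cyclic loess gave 0.10 for hepatocyte identity. For the other shifts the cause was not tested.

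Uncalled genes near 0 changed sign with median scaling: Actb (-0.17), Psmb3 (-0.11), Psme2 (-0.099) and Rela (-0.095). With an array left out, Actb ran from -0.012 to 0.026, Blnk from -0.044 to 0.10, Bpgm from -0.013 to 0.056, Fcrla from -0.058 to 0.015 and Nfkb2 from -0.095 to 0.0085.

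The design sets the main limit. Repeat arrays of 1 RNA sample measure technical spread, so no difference is shown to recur in a further mouse, and individual and genotype cannot be told apart. Signals under the floor carry no order. Probes of near-identical genes were not separated.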
